A study of Xenopus tropicalis with 15 samples.

Results

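The genes described here belong to families of enzymes that set or remove marks on histones and DNA, and of chromatin remodelling subunits. Some members of these families act mainly on other proteins or outside the nucleus. The rule that takes them uses the gene symbol and no measured value. A gene model was taken when its symbol began with hdac, sirt, kdm, kmt, setd, dnmt, smarc, kat or prmt (followed by a number, except for smarc), began with suz12, or was ezh1, ezh2, eed, tet1, tet2 or tet3. The rule took 90 of the 34192 gene models in the files, carrying 87 symbols. The symbols hdac4, hdac10 and prmt3 each stood on 2 models, which are given apart. By class there were 12 zinc-dependent deacetylases, 8 sirtuins, 7 KAT acetyltransferases, 16 lysine demethylases, 17 KMT and SETD methyltransferases, 4 core subunits of Polycomb repressive complex 2 (PRC2), 9 arginine methyltransferases (PRMT), 4 DNA methylation enzymes and 13 SMARC remodelling subunits. Of the 90, 87 passed the filter on low counts, as did 18823 models in all. The other 3 were prmt8, 1 of the hdac4 models and 1 of the hdac10 models, none of which exceeded 0.382 CPM (counts scaled to a common library total) in any library. No model carried the symbols dnmt3b or tet1, which are not analysed here.

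Wild-type Xenopus tropicalis tadpoles had the tail cut at NF stage 41, 3 days after fertilisation, and regenerating tissue of about 250 µm was taken 24 hours post amputation (hpa). Until then, 3 samples were reared at 23 °C in each of 5 µM 2-methoxyestradiol (2ME), 0.5 µM echinomycin, 10 µM IWR-1 or the vehicle, 0.1% DMSO. The last group of 3, called 0 hpa, was untreated tissue just anterior to the cut. DMSO and 0 hpa therefore differ in time, vehicle and place along the tail at once. The study used 2ME and echinomycin as antagonists of Hif1a, the oxygen-sensitive transcription factor, and IWR-1, a tankyrase inhibitor, as an antagonist of Wnt signalling; 2ME also binds tubulin and echinomycin binds DNA. How many tails made up a sample is not given in the sources used here, so p-values measure the spread between these samples, which may be technical.

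Histone deacetylases take acetyl groups from histone tails and work mostly inside large complexes, while acetyltransferases put them on. Methyltransferases and demethylases write and erase methyl marks that accompany active genes, enhancers or silenced regions, PRC2 writes the Polycomb silencing mark, and SMARC proteins move or evict nucleosomes. Histone deacetylation is known to be needed for the tadpole tail to regrow.

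The libraries held 17297773 to 23377789 estimated counts, so that a count of 0 allows up to 0.128 to 0.173 CPM in a library (3 counts, counting error only). That limit is on raw library totals, without the TMM scaling used for the other CPM values. Levels of 1 gene are compared between samples as CPM on TMM-scaled library sizes. Log2 ratios and adjusted p come from edgeR's quasi-likelihood test with Benjamini-Hochberg adjustment over all 18823 models. Standard errors (SE) were derived from the log2 ratio and the F statistic of that test. The tissue was mixed. All 9 striated muscle markers were called higher with each compound than with DMSO and lower with DMSO than at 0 hpa. Their summed CPM ran from 1649 to 2627 with 2ME, 3566 to 4332 with echinomycin, 3309 to 3721 with IWR-1, 1193 to 1553 with DMSO and 15070 to 17000 at 0 hpa. Of 8 tested markers of cycling cells, 4 were lower with 2ME than with DMSO, 8 with echinomycin and 4 with IWR-1, where 1 was higher, and 6 were lower with DMSO than at 0 hpa. Of 5 tested leukocyte markers, 5 were higher with DMSO than at 0 hpa, 4 lower with 2ME and 4 higher with echinomycin than with DMSO, and 1 was higher and 1 lower with IWR-1. All 6 erythroid, 4 endothelial and 4 melanophore markers tested were lower with DMSO than at 0 hpa, with median log2 ratios of -5.51, -2.31 and -3.85. Against DMSO, echinomycin had 2, 4 and 4 of them higher, IWR-1 had 3, 3 and 0 higher with 1 melanophore marker lower, and 2ME had 0, 0 and 3 higher. Notochord markers were higher with echinomycin than with DMSO in 4 of 5 and lower in 1. Their summed CPM was 1135 to 1337 with 2ME, 3433 to 4313 with echinomycin and 1502 to 1566 with IWR-1. It was 1574 to 1635 with DMSO and 3712 to 3906 at 0 hpa. The 4 neural progenitor markers summed to 20.6 to 24.8 CPM with 2ME, 24.4 to 39.5 with echinomycin and 30.1 to 38.3 with IWR-1. With DMSO they summed to 22.4 to 30.3 CPM and at 0 hpa to 68.6 to 86.2. Of 3 epidermal markers 2 were lower with each compound than with DMSO, and 1 was higher with echinomycin. Of 6 neuronal markers 4 were lower with DMSO than at 0 hpa and 4 lower with echinomycin than with DMSO, with 1 higher each time. The part of these cell types in the results below was not tested. In whole tissue, fewer cells of a type and less RNA per cell cannot be told apart.

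The enzyme genes were mostly of middling abundance. On the TPM scale, which divides by transcript length and so allows genes to be set side by side, the tested members had a median of 13.9 TPM over the 15 libraries, against 7.06 TPM for all tested models. Only smarce1, prmt1 and hdac1 exceeded 100 TPM, with means of 255.5, 189 and 160.1 TPM. Another 50 lay between 10 and 100 TPM, 32 between 1 and 10 TPM and 5 below 1 TPM. The next in rank were smarcc1 at 75.2 TPM, smarcb1 at 69.1 TPM and hdac2 at 42.8 TPM, so the most abundant members were subunits of the SWI/SNF remodelling complex, the main arginine methyltransferase and the deacetylases hdac1 and hdac2. Between the highest and lowest group mean of a gene, CPM differed by a median of 1.42-fold. The span was at least 2-fold for 16 of the 87 and under 1.25-fold for 22, the flattest being kdm6a at 36.7 CPM with 2ME, 36.2 with echinomycin, 36.5 with IWR-1, 36.2 with DMSO and 36.9 at 0 hpa. Members moved less than genes at large. Their median absolute log2 ratio was 0.30 for DMSO against 0 hpa (0.49 for all tested models). Against DMSO it was 0.12 with 2ME (0.25), 0.24 with echinomycin (0.38) and 0.16 with IWR-1 (0.31). The part of their higher abundance in this was not tested.

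**Figure D1:**
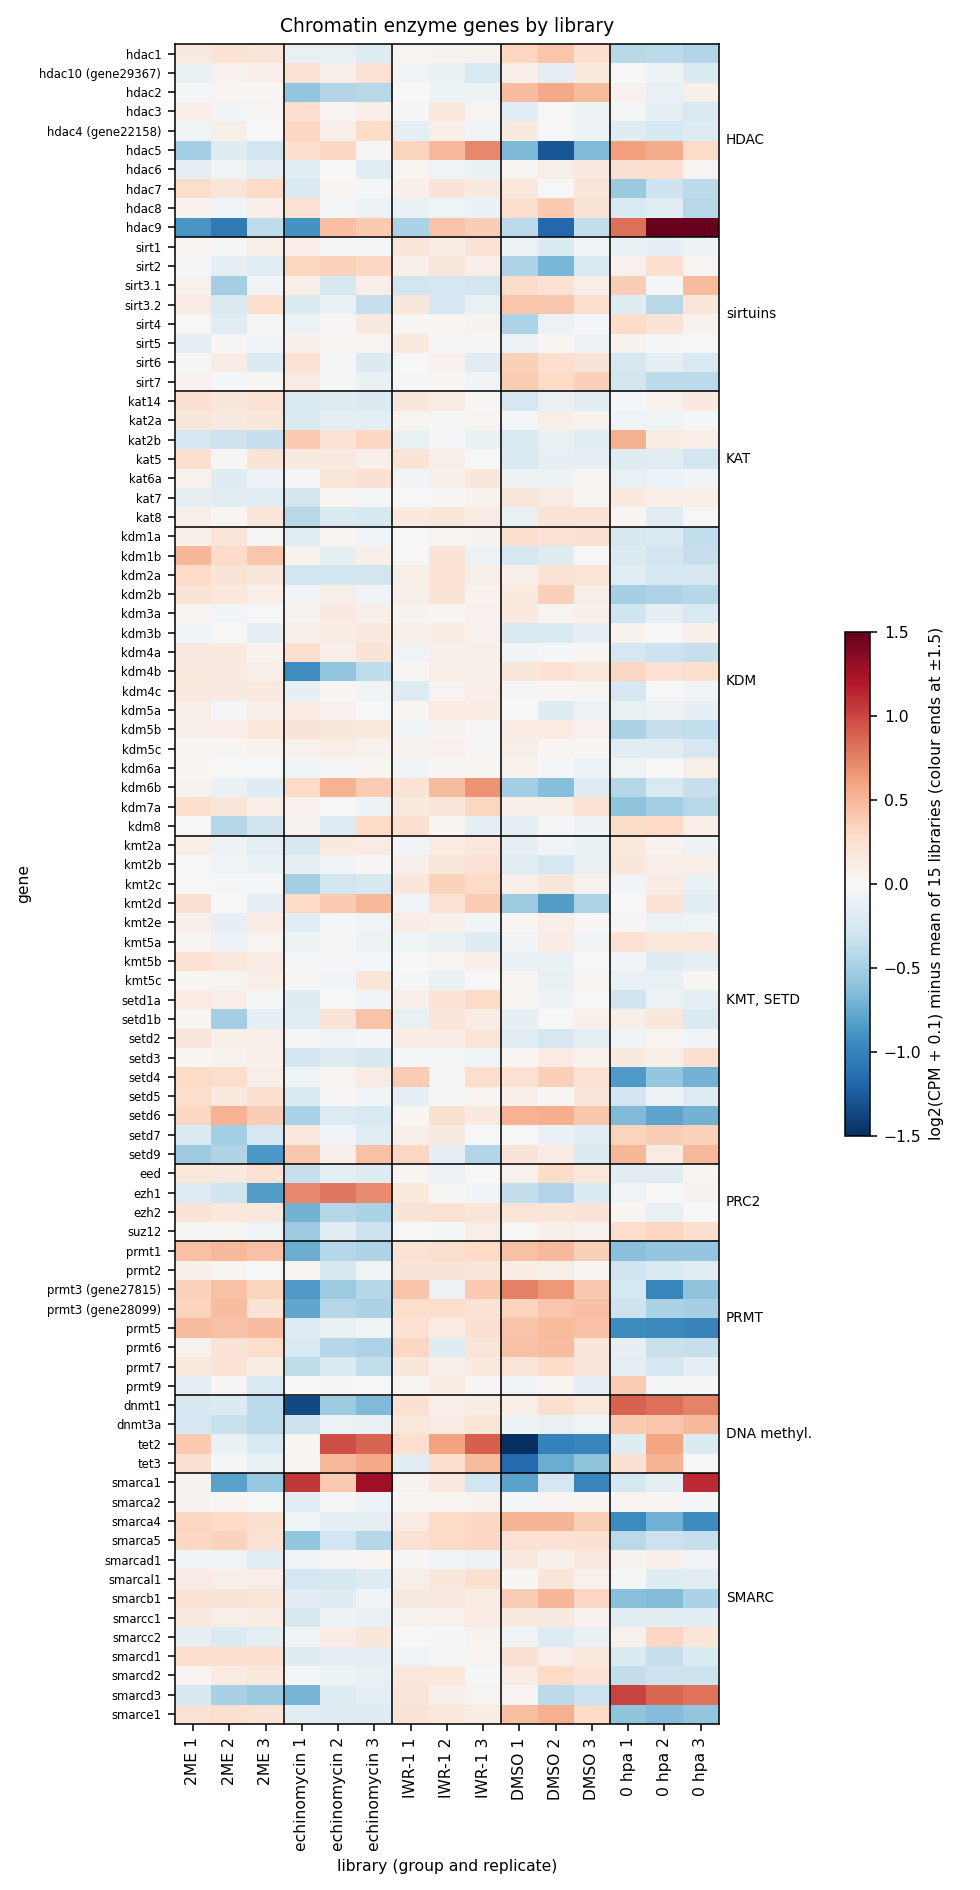
Each row is one of the 87 tested genes, grouped by class, and each column is a library, with 3 each for 2ME, echinomycin, IWR-1, DMSO and 0 hpa. Colour gives log2(CPM + 0.1) minus the mean of the 15 libraries, and kdm6a, with group means of 36.2 to 36.9 CPM, is among the palest rows.

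In regenerating tissue, 36 of the 87 enzyme genes were higher and 20 lower with DMSO at 24 hpa than at 0 hpa (adjusted p under 0.05). Over all models tested 32.2% were higher and 30.8% lower, 63% in either direction, so the share of members that changed was near that of all genes. With upper-quartile factors the split was 30 to 25. Against DMSO, 11 members were higher and 12 lower with 2ME (30.5% of all models were called), 16 and 34 with echinomycin (51.6%) and 15 and 15 with IWR-1 (42.3%). The comparisons with DMSO share its 3 libraries. The libraries of the groups compared did not overlap in 69% of members (66.8% of all models) for DMSO against 0 hpa. Against DMSO these shares were 41.4% (45.3%) with 2ME, 65.5% (57.2%) with echinomycin and 54% (52.2%) with IWR-1. Many genes below were named on condition of no overlap, so it lends their calls no further weight. The splits between higher and lower depended on the scaling. TMM factors were 1.03 to 1.07 in the 9 libraries with a compound and 0.909 to 0.961 in the 6 without one. With library size alone the splits were 27 to 2, 29 to 27 and 39 to 2, while the median log2 ratio of all models moved to 0.12, 0.16 and 0.14, against -0.02, 0.01 and -0.02 with TMM. Upper-quartile factors gave 26 to 29 for echinomycin, where the median of all models moved to 0.12, and 18 to 9 for IWR-1. Changes are therefore relative to the bulk of genes. The count lower with 2ME was 5 without DMSO replicate 1, 4 without DMSO replicate 2 and 6 without 2ME replicate 3, and the count lower with IWR-1 was 8 without DMSO replicate 1 and 9 without DMSO replicate 2. At 1.5-fold or more, 14 members were higher (16.9% of all models) and 8 lower (21.7%) with DMSO than at 0 hpa, 38.6% of all models in either direction. Against DMSO, 3 were higher (6.59%) and 1 lower (4.7%) with 2ME, 8 higher (15.6%) and 11 lower (9.98%) with echinomycin, and 5 higher (11.5%) and 0 lower (6.4%) with IWR-1. Class and list counts of 2 or fewer moved by at most 2 genes when 1 library was left out, so that a count of 2 could fall to 0. In one direction at any size, 14% of all models were higher and 16.5% lower with 2ME, 24.6% and 27% with echinomycin, and 19.9% and 22.4% with IWR-1.

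Among tested models above 5 CPM, the median log2 ratio of DMSO to 0 hpa was 0.25 for 4075 transcripts under 2000 bases and -0.18 for 1236 over 6000 bases. With echinomycin against DMSO these medians were -0.25 and 0.10, with IWR-1 -0.22 and 0.16, and with 2ME -0.15 and 0.09. Members above that level numbered 13 under 2000 bases and 19 over 6000 bases. Their medians were 0.64 and -0.14 for DMSO against 0 hpa. Against DMSO they were -0.39 and 0.16 with echinomycin, -0.27 and 0.18 with IWR-1, and -0.21 and 0.09 with 2ME. The part of length in any 1 result was not tested. A fit with an offset for each library's length trend (the length offset below), chosen after seeing the data, gave 37 higher and 21 lower for DMSO against 0 hpa and 10 to 12, 14 to 38 and 14 to 13 for 2ME, echinomycin and IWR-1. Where a call ended in that fit, this is said beside it.

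**Figure D2:**
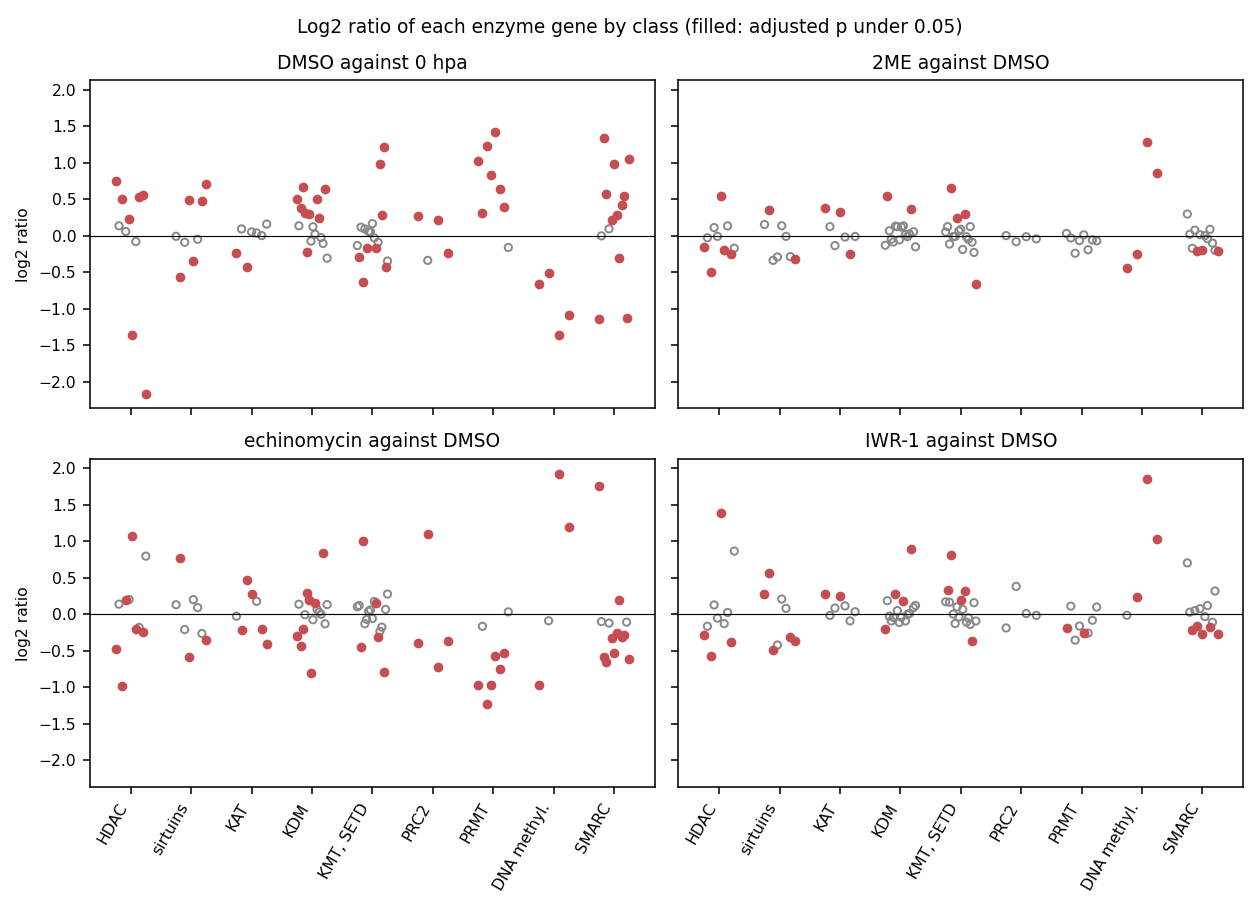
Log2 ratios of the 87 tested genes by class for DMSO against 0 hpa and for each compound against DMSO. Filled points have an adjusted p under 0.05, and all 4 DNA methylation enzyme genes lie below 0 for DMSO against 0 hpa.

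Among the zinc-dependent deacetylases, hdac1, hdac2 and hdac8 were higher with DMSO than at 0 hpa and lower with each compound than with DMSO, and hdac5 went the other way. The falls of hdac2, and the rises of hdac5 with echinomycin and IWR-1, kept their calls in all 26 alternatives tried (other scalings, filters, tools and left-out libraries). hdac1 and hdac2 encode the alternative catalytic subunits of the Sin3, NuRD and CoREST complexes. hdac2 was at 60.2, 63.2 and 62.5 CPM with 2ME, 40.8, 45.1 and 46.1 with echinomycin, 61.0, 58.1 and 58.0 with IWR-1, 84.5, 91.7 and 85.4 with DMSO, and 64.2, 56.9 and 64.6 at 0 hpa. The 3 DMSO libraries were above all 12 others, and the 3 echinomycin libraries below all others. The log2 ratio was 0.50 ± 0.06, adjusted p = 3.2e-06 for DMSO against 0 hpa, and against DMSO it was -0.49 ± 0.06, adjusted p = 3.8e-05 with 2ME, -0.99 ± 0.06, adjusted p = 8.5e-09 with echinomycin and -0.56 ± 0.06, adjusted p = 3.8e-06 with IWR-1. The rise of hdac2 over 0 hpa held in all of them as well. hdac1 was at 301, 316 and 311 CPM with 2ME, 254, 254 and 241 with echinomycin, 282, 284 and 284 with IWR-1, 343, 366 and 328 with DMSO, and 205, 209 and 203 at 0 hpa. Here too DMSO was highest and did not overlap any other group, and 0 hpa was lowest. The ratio was 0.75 ± 0.05, adjusted p = 1.9e-09 for DMSO against 0 hpa and -0.47 ± 0.05, adjusted p = 1.6e-06 for echinomycin against DMSO. With IWR-1 it was -0.28 ± 0.05, adjusted p = 0.00033, a call that ended with library size alone (adjusted p = 0.0508). With 2ME it was -0.16 ± 0.05, adjusted p = 0.028, a call that ended in 5 of the 15 fits that leave out 1 library, with the highest adjusted p, 0.188, without DMSO replicate 2.

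hdac8, a class I enzyme that acts outside these complexes, rose to 24.7 ± 1.63 CPM with DMSO (SD, n = 3), against 16.8 ± 1.48 at 0 hpa (log2 ratio 0.55 ± 0.09, adjusted p = 6.9e-05). It was lower than DMSO with IWR-1 (-0.37 ± 0.09, adjusted p = 0.0033), a call that ended with library size alone (adjusted p = 0.0674). The calls with 2ME (-0.25 ± 0.09, adjusted p = 0.045) and echinomycin (-0.24 ± 0.09, adjusted p = 0.035) ended with library size alone (adjusted p = 0.374 and 0.397), upper-quartile factors and the length offset, the call with 2ME in 13 of the 15 fits that leave out 1 library, with the highest adjusted p, 0.212, without DMSO replicate 2, and that with echinomycin in 5 of the 15 fits that leave out 1 library, with the highest adjusted p, 0.184, without DMSO replicate 2. hdac3, the catalytic subunit of the NCoR complexes, stayed at 28.3 to 39.3 CPM in all 15 libraries. Its log2 ratio was 0.06 ± 0.08, adjusted p = 0.56 for DMSO against 0 hpa, 0.11 ± 0.08, adjusted p = 0.31 with 2ME and 0.13 ± 0.08, adjusted p = 0.20 with IWR-1. With echinomycin it was 0.20 ± 0.08, adjusted p = 0.043, a call that ended in 6 of the 15 fits that leave out 1 library, with the highest adjusted p, 0.134, without echinomycin replicate 1.

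The class IIa gene hdac5, whose protein represses MEF2 targets in muscle and other tissues of mammals, was at 4.43, 5.61 and 5.21 CPM with 2ME, 7.58, 7.92 and 6.46 with echinomycin, 8.02, 8.94 and 10.5 with IWR-1, 3.93, 2.55 and 3.99 with DMSO, and 9.80, 9.39 and 7.79 at 0 hpa. The DMSO libraries were the lowest of all, the 2ME libraries came next, and the libraries of the other 3 groups were above both. The log2 ratio was -1.37 ± 0.17, adjusted p = 3.0e-06 for DMSO against 0 hpa, and it was higher than DMSO with IWR-1 (1.39 ± 0.17, adjusted p = 9.7e-06) and echinomycin (1.07 ± 0.17, adjusted p = 7.7e-05). The call with 2ME (0.54 ± 0.18, adjusted p = 0.029) ended without DMSO replicate 2 (adjusted p = 0.143), 2ME replicate 2 (0.101) or 2ME replicate 3 (0.0688), and with the length offset (adjusted p = 0.0631); the transcript has 6471 bases. Between the compounds, hdac5 was lower with 2ME than with IWR-1 (-0.85 ± 0.16, adjusted p = 0.0012). hdac7, another class IIa gene, rose to 109 CPM with DMSO, against 75.2 at 0 hpa (0.53 ± 0.08, adjusted p = 1.1e-05), and passed the test with none of the compounds against DMSO. hdac9 was rare, at 0.562, 0.284 and 0.583 CPM with DMSO and 1.45, 2.60 and 2.37 at 0 hpa (-2.16 ± 0.42, adjusted p = 0.00029), a call kept in all 25 alternatives that tested it. Its fall and that of hdac5 came with that of the muscle markers, whose part was not tested. In the class as a whole, 5 of 10 tested models were higher and 2 lower with DMSO than at 0 hpa (4 and 3 with upper-quartile factors), the others that were higher being hdac7 and 1 model of hdac4. Against DMSO, 2ME gave 1 higher and 4 lower, echinomycin 2 and 4, and IWR-1 1 and 3; with library size alone these became 3 and 1, 4 and 2, and 2 and 1. Without single libraries, the 4 lower with 2ME became 2 without 0 hpa replicate 3 or DMSO replicate 3 and 1 without DMSO replicate 1, DMSO replicate 2, 2ME replicate 1 or 2ME replicate 3, and the 4 lower with echinomycin became 2 without echinomycin replicate 3. The share called was 70% for DMSO against 0 hpa, 50% with 2ME, 60% with echinomycin and 40% with IWR-1 against DMSO (63%, 30.5%, 51.6% and 42.3% of all models).

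**Figure D3:**
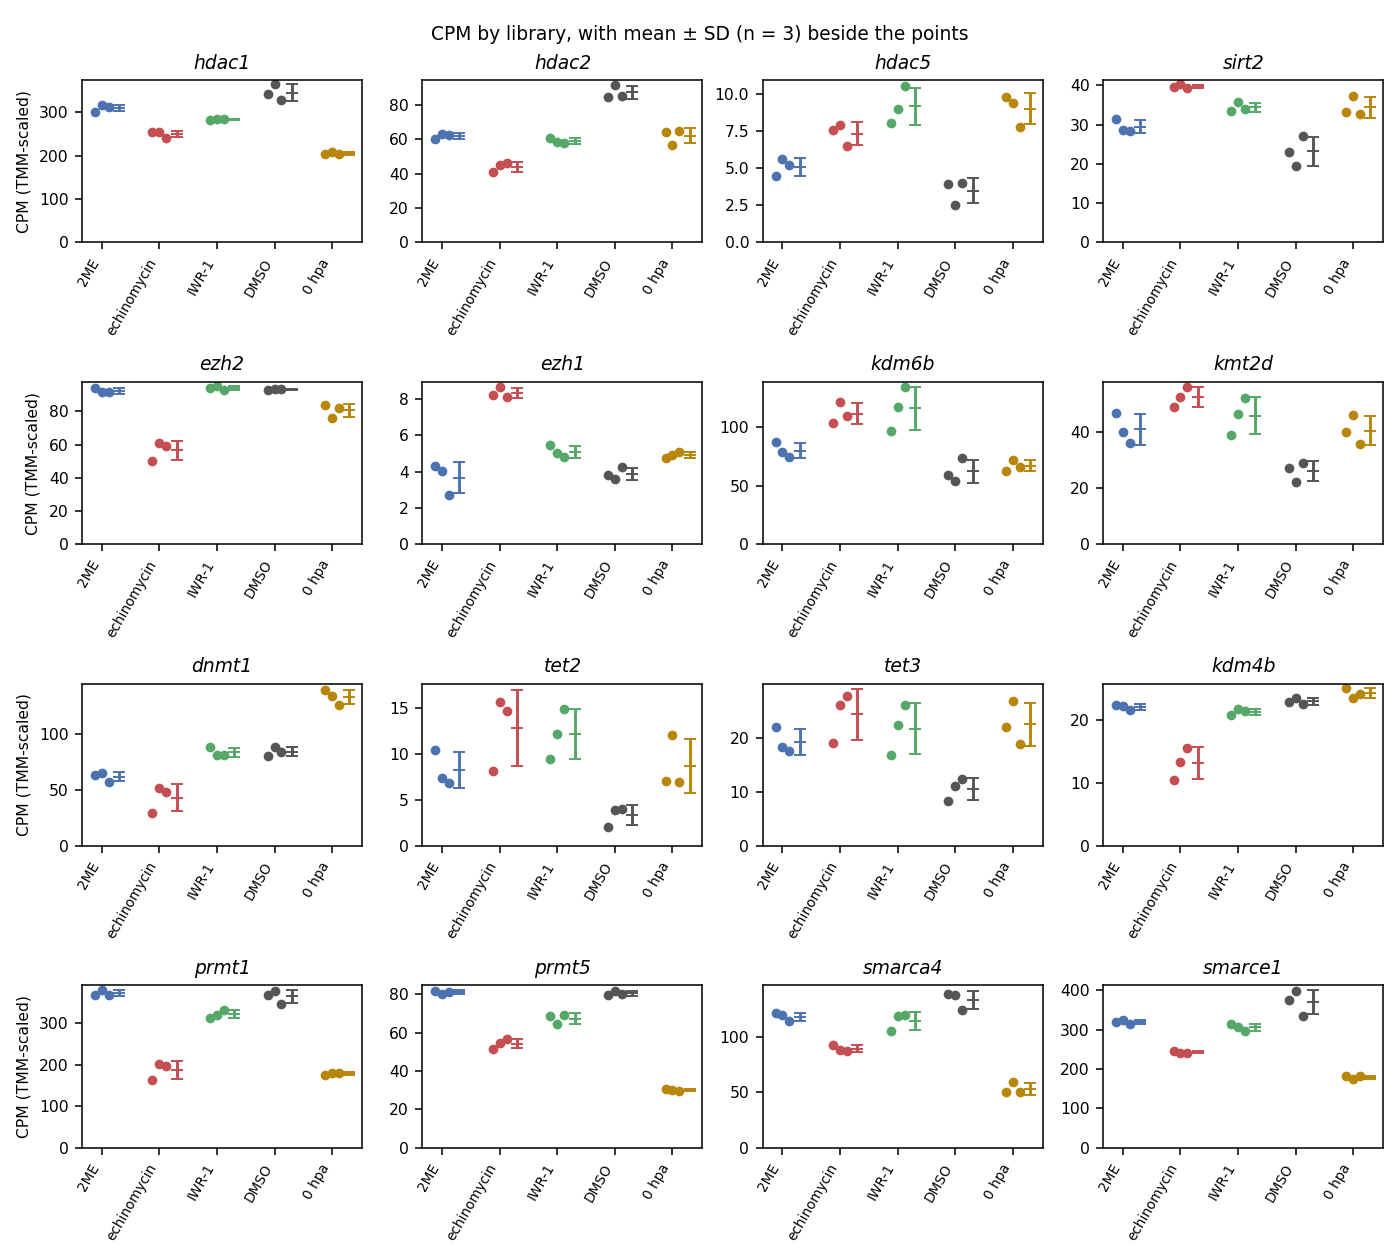
CPM of 16 enzyme genes in each library (points) with the group mean ± SD (n = 3) beside them; every axis starts at 0. hdac2 is highest with DMSO, tet2 lowest with DMSO, and ezh1 highest with echinomycin.

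Deacetylases act through partner subunits. Of 39 tested subunits of the Sin3, NuRD, CoREST and NCoR complexes, 22 were higher and 4 lower with DMSO than at 0 hpa (16 and 6 with upper-quartile factors). With echinomycin 3 were higher and 22 lower than with DMSO (6 and 14 with library size alone). 2ME gave 2 and 10 (6 and 6 with library size alone), and IWR-1 4 and 10 (8 and 6). Of the list, the share called was 66.7% for DMSO against 0 hpa, 30.8% with 2ME, 64.1% with echinomycin and 35.9% with IWR-1 against DMSO (63%, 30.5%, 51.6% and 42.3% of all models). Without 1 library, the 3 higher with echinomycin became 1 without echinomycin replicate 3. chd4, the NuRD remodelling ATPase, averaged 389 CPM with DMSO and 247 CPM at 0 hpa (0.65 ± 0.05, adjusted p = 1.9e-08). The histone-binding subunits rbbp4 and rbbp7, which NuRD and Sin3 share with PRC2, fell with echinomycin, to 32.5 against 66.9 CPM with DMSO for rbbp4 (-1.04 ± 0.07, adjusted p = 1.1e-08) and 124 against 234 CPM for rbbp7 (-0.91 ± 0.07, adjusted p = 3.9e-08). The NuRD subunit mbd3 fell with IWR-1 to 101 CPM, against 135 with DMSO (-0.42 ± 0.05, adjusted p = 9.9e-06).

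Sirtuins are deacylases that use NAD. The nucleolar sirt7 was at 30.4, 28.8 and 29.3 CPM with 2ME, 31.7, 28.7 and 27.1 with echinomycin, 28.4, 29.4 and 28.3 with IWR-1, 38.0, 35.7 and 37.4 with DMSO, and 24.0, 22.1 and 22.0 at 0 hpa. The DMSO libraries were above all others and 0 hpa below all others. Its log2 ratio was 0.70 ± 0.07, adjusted p = 1.7e-07 for DMSO against 0 hpa and -0.33 ± 0.07, adjusted p = 0.0020 for 2ME against DMSO. With echinomycin (-0.34 ± 0.07, adjusted p = 0.00048) and IWR-1 (-0.37 ± 0.07, adjusted p = 0.00041) it was of like size, and both calls ended with the length offset (adjusted p = 0.221 and 0.0631). sirt2, a mainly cytoplasmic enzyme that also deacetylates tubulin, went the other way, at 31.4, 28.7 and 28.3 CPM with 2ME, 39.6, 40.2 and 39.4 with echinomycin, 33.4, 35.7 and 34.0 with IWR-1, 22.9, 19.6 and 27.0 with DMSO, and 33.2, 37.4 and 32.6 at 0 hpa. DMSO was lowest and echinomycin highest, and neither overlapped another group. The ratio was -0.57 ± 0.09, adjusted p = 5.7e-05 for DMSO against 0 hpa, 0.78 ± 0.09, adjusted p = 3.9e-06 for echinomycin against DMSO and 0.57 ± 0.09, adjusted p = 0.00014 for IWR-1. With 2ME it was 0.35 ± 0.09, adjusted p = 0.011, a call that ended without DMSO replicate 2 (adjusted p = 0.0546) or 2ME replicate 1 (0.0548).

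The nuclear sirt1 averaged 33.1 CPM with IWR-1 and 27.2 with DMSO (0.28 ± 0.07, adjusted p = 0.0023). sirt6, a chromatin deacylase, averaged 17.0 CPM with DMSO and 12.2 at 0 hpa (0.48 ± 0.12, adjusted p = 0.0018), a call that ended with the length offset (adjusted p = 0.0733). Of the mitochondrial members, sirt5 passed no test against DMSO or 0 hpa and stayed at 36.3 to 44.1 CPM. sirt3.1 and sirt3.2, copies that could exchange reads, lay at 3.66 to 7.61 CPM, and the fall of sirt3.2 with echinomycin (-0.58 ± 0.17, adjusted p = 0.0096) held in all 26 alternatives. In the class of 8, 3 were higher and 2 lower with DMSO than at 0 hpa, and 1 and 3 with the length offset. Against DMSO the counts were 1 and 1 with 2ME (2 and 1 with library size alone), 1 and 2 with echinomycin (4 and 2, and 2 and 1 with the length offset) and 2 and 3 with IWR-1 (4 and 1, and 3 and 0). Of the sirtuins, the share called was 62.5% for DMSO against 0 hpa, 25% with 2ME, 37.5% with echinomycin and 62.5% with IWR-1 against DMSO (63%, 30.5%, 51.6% and 42.3% of all models), and the 3 lower with IWR-1 became 1 without DMSO replicate 1, DMSO replicate 2 or IWR-1 replicate 3.

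Among the KAT acetyltransferase genes the highest group mean was at most 1.53-fold the lowest. kat2b (PCAF) and kat2a (GCN5) encode alternative catalytic subunits of the SAGA and ATAC coactivators. kat2b was at 27.2, 26.1 and 25.5 CPM with 2ME, 42.6, 37.8 and 40.4 with echinomycin, 30.0, 31.9 and 30.2 with IWR-1, 27.8, 30.0 and 28.9 with DMSO, and 47.2, 35.1 and 34.8 at 0 hpa. Echinomycin was above 2ME, IWR-1 and DMSO with no overlap, and 0 hpa replicate 1 was the highest library. kat2b had a log2 ratio of -0.43 ± 0.10, adjusted p = 0.00093 for DMSO against 0 hpa, 0.48 ± 0.10, adjusted p = 0.00052 for echinomycin against DMSO and -0.61 ± 0.10, adjusted p = 6.1e-05 for 2ME against echinomycin. kat2a ran from 32.6 to 42.7 CPM and its fall with echinomycin (-0.21 ± 0.06, adjusted p = 0.0048) ended with library size alone (adjusted p = 0.395). kat14, an ATAC subunit, was at 38.2, 36.9 and 38.0 CPM with 2ME, 28.1, 28.9 and 28.4 with echinomycin, 36.8, 35.6 and 33.0 with IWR-1, 27.5, 30.1 and 29.1 with DMSO, and 32.0, 34.1 and 36.2 at 0 hpa. The 2ME and IWR-1 libraries were higher than the DMSO libraries, at 0.38 ± 0.07, adjusted p = 0.00048 and 0.28 ± 0.07, adjusted p = 0.0024, while echinomycin was not told apart from DMSO (-0.02 ± 0.07, adjusted p = 0.78). kat8 (MOF), an acetyltransferase of histone H4 known for dosage compensation in flies, fell with echinomycin to 14.6 CPM, against 19.2 with DMSO (-0.40 ± 0.10, adjusted p = 0.0023), and was higher with 2ME than with echinomycin (0.39 ± 0.10, adjusted p = 0.0033). kat5 (TIP60) was higher than DMSO with echinomycin (0.28 ± 0.08, adjusted p = 0.012), 2ME (0.32 ± 0.08, adjusted p = 0.0096) and IWR-1 (0.26 ± 0.08, adjusted p = 0.022); the 2ME call ended without 2ME replicate 1 (adjusted p = 0.0562) and the IWR-1 call without DMSO replicate 1 (adjusted p = 0.0606), IWR-1 replicate 1 (0.0869) or IWR-1 replicate 2 (0.0505).

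Of the 7 KAT genes 0 were higher and 2 were lower with DMSO than at 0 hpa (1 and 2 with the length offset). Against DMSO the counts were 2 and 1 with 2ME, 2 and 3 with echinomycin (3 and 1 with library size alone) and 2 and 0 with IWR-1 (5 and 0), and the share called was 28.6% for DMSO against 0 hpa, 42.9% with 2ME, 71.4% with echinomycin and 28.6% with IWR-1 against DMSO (63%, 30.5%, 51.6% and 42.3% of all models). Among 53 other acetyltransferases and subunits of their complexes, 20 were higher and 9 lower with DMSO than at 0 hpa, and 6 were higher and 23 lower with echinomycin than with DMSO (13 and 15 with library size alone). 2ME gave 8 and 11, and IWR-1 9 and 16, turning to 16 and 5 for each with library size alone, while 2ME gave 5 higher and IWR-1 5 and 10 with the length offset. Single libraries mattered to these counts: the 8 higher with 2ME became 4 without DMSO replicate 2 and 3 without 2ME replicate 1, the 11 lower with 2ME became 7 without DMSO replicate 2, the 9 higher with IWR-1 became 5 without DMSO replicate 2, IWR-1 replicate 2 or IWR-1 replicate 3, and the 16 lower with IWR-1 became 10 without DMSO replicate 2. The share of this list called was 54.7% for DMSO against 0 hpa, 35.9% with 2ME, 54.7% with echinomycin and 47.2% with IWR-1 against DMSO (63%, 30.5%, 51.6% and 42.3% of all models). supt3h, a core SAGA subunit, fell with echinomycin to 2.92 CPM, against 11.3 with DMSO (-1.96 ± 0.15, adjusted p = 4.8e-08), and its partner sgf29, a reader of methylated histone H3, fell to 30.9 against 52.8 CPM (-0.77 ± 0.07, adjusted p = 1.9e-07).

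Among the demethylases, 8 of 16 were higher and 1 lower with DMSO than at 0 hpa, a split of 8 to 2 or 8 to 1 under every scaling. Of all demethylases, the share called was 56.2% for DMSO against 0 hpa, 12.5% with 2ME, 50% with echinomycin and 25% with IWR-1 against DMSO (63%, 30.5%, 51.6% and 42.3% of all models). kdm2b, which brings a variant Polycomb complex to unmethylated CpG islands, was at 57.1, 55.6 and 53.3 CPM with 2ME, 48.3, 52.9 and 48.2 with echinomycin, 52.8, 56.8 and 51.8 with IWR-1, 55.2, 63.7 and 52.9 with DMSO, and 35.2, 36.2 and 37.0 at 0 hpa. The 0 hpa libraries were below all 12 others. DMSO against 0 hpa gave a log2 ratio of 0.66 ± 0.07, adjusted p = 4.6e-07. kdm7a averaged 38.6 CPM with DMSO and 24.8 CPM at 0 hpa (0.64 ± 0.08, adjusted p = 1.3e-06), and kdm1a (LSD1), the demethylase of the CoREST deacetylase complex, 60.1 and 42.5 CPM (0.50 ± 0.06, adjusted p = 3.1e-06). Against DMSO, kdm1a was lower with echinomycin (-0.29 ± 0.06, adjusted p = 0.00094), a call that ended with library size alone (adjusted p = 0.0862). With IWR-1 (-0.20 ± 0.06, adjusted p = 0.018) its call ended with library size alone (adjusted p = 0.694), with upper-quartile factors, and without DMSO replicate 1 (adjusted p = 0.0611), DMSO replicate 2 (0.0525) or IWR-1 replicate 1 (0.056), and with 2ME it passed no test (-0.13 ± 0.06, adjusted p = 0.12). The exception in direction was kdm3b, -0.22 ± 0.05, adjusted p = 0.0010 for DMSO against 0 hpa, a call that ended with the length offset (adjusted p = 0.238).

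kdm6b (JMJD3), an eraser of the Polycomb mark, was higher with echinomycin and IWR-1 than with DMSO. It was at 86.8, 78.5 and 74.1 CPM with 2ME, 103, 121 and 109.6 with echinomycin, 96.8, 116 and 134 with IWR-1, 58.8, 53.9 and 73.3 with DMSO, and 62.5, 71.9 and 66.0 at 0 hpa. All echinomycin and IWR-1 libraries were above all DMSO and 0 hpa libraries. The ratio to DMSO was 0.84 ± 0.12, adjusted p = 1.7e-05 with echinomycin and 0.90 ± 0.12, adjusted p = 1.6e-05 with IWR-1, and 2ME was lower than both (-0.48 ± 0.11, adjusted p = 0.0027 against echinomycin and -0.54 ± 0.11, adjusted p = 0.0029 against IWR-1). The call of 2ME against DMSO (0.36 ± 0.12, adjusted p = 0.027) ended without DMSO replicate 1 (adjusted p = 0.0788), DMSO replicate 2 (0.124), 2ME replicate 1 (0.114) or 2ME replicate 2 (0.0536). Its close relative kdm6a (UTX) was flat, and the interval of its ratio was -0.11 to 0.15 for 2ME, -0.13 to 0.13 for echinomycin and -0.12 to 0.15 for IWR-1 against DMSO (95%). kdm1b (LSD2) was higher with 2ME than with DMSO, at 25.6, 22.2 and 24.2 CPM with 2ME and 15.3, 15.97 and 18.06 with DMSO (0.54 ± 0.10, adjusted p = 0.00062).

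kdm3a and kdm4b are known in mammals as targets of HIF1, which 2ME and echinomycin are used to block. Both are examples picked with earlier values known, and the other demethylases were not sorted by HIF1 control. The part of HIF1 in these values was not tested. kdm3a was at 121, 114 and 118 CPM with 2ME, 122, 129 and 124 with echinomycin, 122, 120.1 and 123 with IWR-1, 130.4, 121 and 124 with DMSO, and 95.4, 107 and 100.4 at 0 hpa. It was higher with DMSO than at 0 hpa (0.31 ± 0.05, adjusted p = 7.6e-05), and the ratio to DMSO was -0.09 ± 0.05, adjusted p = 0.22 with 2ME and -0.0037 ± 0.05, adjusted p = 0.96 with echinomycin, with 95% intervals of -0.21 to 0.03 and -0.12 to 0.11. kdm4b was at 22.4, 22.3 and 21.6 CPM with 2ME, 10.5, 13.4 and 15.5 with echinomycin, 20.7, 21.8 and 21.4 with IWR-1, 22.8, 23.6 and 22.6 with DMSO, and 25.1, 23.5 and 24.2 at 0 hpa. The echinomycin libraries were below all 12 others, which lay between 20.7 and 25.1 CPM. The ratio to DMSO was -0.81 ± 0.10, adjusted p = 6.5e-06 with echinomycin, and -0.06 ± 0.10, adjusted p = 0.69 with 2ME with an interval of -0.28 to 0.16. 2ME was higher than echinomycin for kdm4b (0.75 ± 0.10, adjusted p = 1.6e-05). kdm2a fell with echinomycin to 44.1 CPM, against 59.5 with DMSO (-0.43 ± 0.06, adjusted p = 1.1e-05), and was higher with 2ME than with echinomycin (0.50 ± 0.06, adjusted p = 2.9e-06). Against DMSO the class counts were 2 higher and 0 lower with 2ME (8 and 0 with library size alone), 4 and 4 with echinomycin (7 and 2) and 3 and 1 with IWR-1 (8 and 0, and 2 and 3 with the length offset). Of 14 other demethylases, 5 were higher and 2 lower with DMSO than at 0 hpa, among them the arginine demethylase and hydroxylase jmjd6 at 31.8 and 17.5 CPM (0.86 ± 0.07, adjusted p = 1.1e-08). Against DMSO their counts were 2 and 0 with 2ME, 3 and 5 with echinomycin (7 and 3 with library size alone, 6 and 4 with upper-quartile factors) and 3 and 3 with IWR-1 (5 and 1, and 3 and 1). The share of these called was 50% for DMSO against 0 hpa, 14.3% with 2ME, 57.1% with echinomycin and 42.9% with IWR-1 against DMSO (63%, 30.5%, 51.6% and 42.3% of all models).

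**Figure D4:**
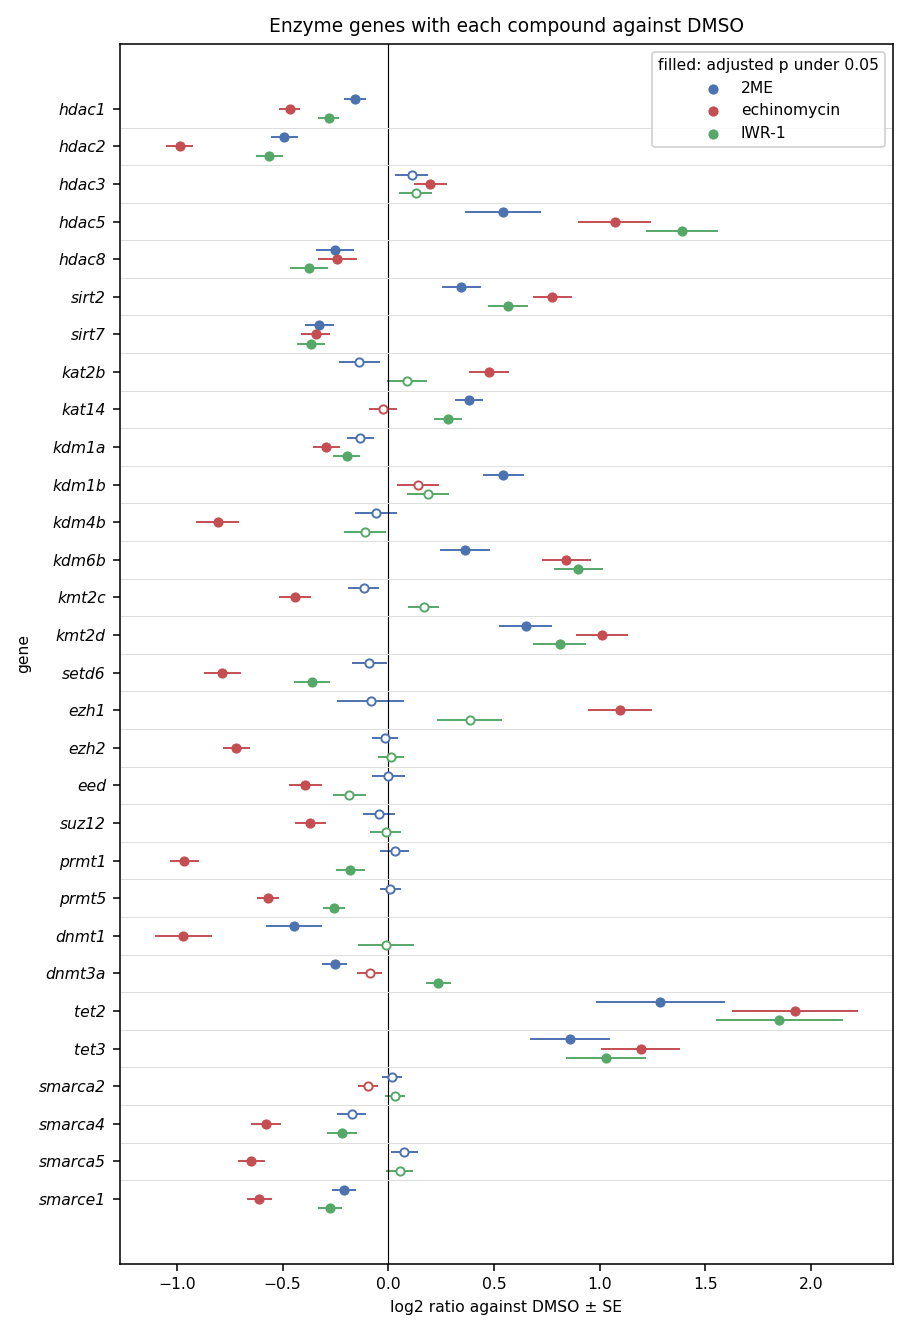
Log2 ratios ± SE of 30 enzyme genes with 2ME, echinomycin and IWR-1 against DMSO. Filled points have an adjusted p under 0.05; tet2, tet3, hdac5 and kmt2d lie to the right for all 3 compounds and hdac2 to the left, while ezh2, kdm4b and smarca5 lie apart from 0 with echinomycin.

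Among the KMT and SETD methyltransferases, kmt2c and kmt2d encode the paired enhancer methyltransferases MLL3 and MLL4, and with echinomycin kmt2d was higher and kmt2c lower than with DMSO. kmt2d was at 46.7, 39.9 and 36.0 CPM with 2ME, 49.0, 52.5 and 56.0 with echinomycin, 38.8, 46.4 and 51.9 with IWR-1, 27.2, 22.2 and 28.8 with DMSO, and 39.9, 45.8 and 35.6 at 0 hpa. The DMSO libraries were below all 12 others. The log2 ratio to DMSO was 0.65 ± 0.13, adjusted p = 0.0012 with 2ME, 1.01 ± 0.13, adjusted p = 5.4e-06 with echinomycin and 0.81 ± 0.13, adjusted p = 8.4e-05 with IWR-1, and these calls held in all 26 alternatives. For DMSO against 0 hpa it was -0.64 ± 0.13, adjusted p = 0.00034, a call that ended with the length offset (adjusted p = 0.0693), the transcript having 23343 bases. kmt2c, at 16475 bases also among the longest, was at 109, 106 and 107 CPM with 2ME, 76.1, 89.5 and 91.6 with echinomycin, 122, 138 and 132 with IWR-1, 114, 122 and 113 with DMSO, and 105, 117 and 99.99 at 0 hpa. Echinomycin was below all others. The ratio was -0.44 ± 0.07, adjusted p = 0.00011 for echinomycin against DMSO, 0.17 ± 0.07, adjusted p = 0.077 for IWR-1 against DMSO and -0.61 ± 0.07, adjusted p = 8.6e-06 for echinomycin against IWR-1. kmt2b was higher with IWR-1 than with DMSO (0.33 ± 0.06, adjusted p = 0.00030), and setd2, which trimethylates histone H3 behind elongating polymerase, was higher with 2ME (0.30 ± 0.05, adjusted p = 0.00080) and IWR-1 (0.32 ± 0.05, adjusted p = 0.00017).

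setd6, a monomethyltransferase of proteins such as the NF-kappaB subunit RelA, had the largest rise of the class. It was at 31.2, 36.2 and 32.5 CPM with 2ME, 18.15, 22.0 and 21.5 with echinomycin, 25.6, 29.4 and 27.8 with IWR-1, 36.2, 36.8 and 33.3 with DMSO, and 15.8, 14.5 and 15.3 at 0 hpa. All 0 hpa libraries were below all others, and echinomycin was the next lowest, with no overlap. The ratio was 1.22 ± 0.09, adjusted p = 4.7e-09 for DMSO against 0 hpa and -0.79 ± 0.09, adjusted p = 1.7e-06 for echinomycin against DMSO. The call with IWR-1 (-0.36 ± 0.09, adjusted p = 0.0027) ended with library size alone (adjusted p = 0.0763). setd4 averaged 10.3 CPM with DMSO and 5.22 CPM at 0 hpa (0.98 ± 0.13, adjusted p = 3.9e-06), and no compound moved it past the test. setd7, a monomethyltransferase of histone H3 and other proteins, was lower with DMSO than at 0 hpa (-0.44 ± 0.09, adjusted p = 0.00059) and lower with 2ME than with IWR-1 (-0.39 ± 0.09, adjusted p = 0.0056). kmt5b, a writer of the heterochromatin mark on histone H4, was higher with 2ME than with DMSO (0.23 ± 0.06, adjusted p = 0.0049). setd3, the methyltransferase of actin, was lower with echinomycin than with DMSO (-0.31 ± 0.06, adjusted p = 0.00029). In the class of 17, 3 were higher and 5 lower with DMSO than at 0 hpa, and 7 and 4 with the length offset. As a whole, the share of the class called was 47.1% for DMSO against 0 hpa, 23.5% with 2ME, 29.4% with echinomycin and 29.4% with IWR-1 against DMSO (63%, 30.5%, 51.6% and 42.3% of all models). Against DMSO the counts were 3 and 1 with 2ME, 2 and 3 with echinomycin (6 and 3 with library size alone, 4 and 3 with upper-quartile factors) and 4 and 1 with IWR-1 (8 and 0 with library size alone). Of 35 other histone methyltransferases and subunits, 16 were higher and 10 lower with DMSO than at 0 hpa. smyd1, a methyltransferase of striated muscle, was at 4.35 CPM with DMSO and 63.1 CPM at 0 hpa (-3.85 ± 0.20, adjusted p = 6.8e-11). The muscle markers fell beside it, and their part was not tested. Against DMSO the counts of this list were 4 and 8 with 2ME (9 and 3 with library size alone), 5 and 17 with echinomycin (7 and 12) and 8 and 9 with IWR-1 (12 and 4, with 5 lower under upper-quartile factors and 5 higher under the length offset). Leaving out single libraries, the 4 higher with 2ME became 1 without DMSO replicate 2 and 2 without 2ME replicate 1, the 8 lower with 2ME became 3 without DMSO replicate 1, 5 without DMSO replicate 2 or DMSO replicate 3 and 4 without 2ME replicate 1, the 8 higher with IWR-1 became 5 without IWR-1 replicate 3, and the 9 lower with IWR-1 became 5 without DMSO replicate 1, DMSO replicate 2 or IWR-1 replicate 3. Of this list, the share called was 74.3% for DMSO against 0 hpa, 34.3% with 2ME, 62.9% with echinomycin and 48.6% with IWR-1 against DMSO (63%, 30.5%, 51.6% and 42.3% of all models).

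In PRC2 the catalytic subunits ezh1 and ezh2 moved apart with echinomycin. EZH2 is the form of dividing cells and EZH1 is more common in resting ones. ezh2 was at 94.0, 91.4 and 91.3 CPM with 2ME, 50.1, 60.8 and 59.0 with echinomycin, 93.9, 95.4 and 92.9 with IWR-1, 92.9, 93.2 and 93.7 with DMSO, and 83.7, 76.0 and 82.2 at 0 hpa. ezh1 was at 4.31, 4.01 and 2.71 CPM with 2ME, 8.23, 8.65 and 8.14 with echinomycin, 5.46, 5.01 and 4.81 with IWR-1, 3.82, 3.61 and 4.26 with DMSO, and 4.77, 4.93 and 5.11 at 0 hpa. The echinomycin libraries were the lowest of all 15 for ezh2 and the highest of all 15 for ezh1. The log2 ratio to DMSO was -0.72 ± 0.06, adjusted p = 1.8e-07 for ezh2 and 1.10 ± 0.15, adjusted p = 1.4e-05 for ezh1. The scaffold subunits eed (-0.39 ± 0.08, adjusted p = 0.00053) and suz12 (-0.37 ± 0.08, adjusted p = 0.00065) fell with echinomycin as well, so that 3 of 4 core genes were lower and 1 higher, under every scaling tried. With 2ME against DMSO edgeR called 0 of the 4, with 0 at an unadjusted p under 0.05 and 0 by DESeq2 or limma. With IWR-1 it called 0, with 2 at an unadjusted p under 0.05, 0 by DESeq2, and 2 higher by limma and with library size alone. The share of the 4 core genes called was 75% for DMSO against 0 hpa (63% of all models). Against DMSO it was 0% with 2ME, 100% with echinomycin and 0% with IWR-1 (30.5%, 51.6% and 42.3% of all models). For ezh2 the 95% interval of the ratio to DMSO was -0.16 to 0.12 with 2ME and -0.13 to 0.15 with IWR-1. The difference between compounds passed the test for ezh2, at 0.70 ± 0.06, adjusted p = 2.1e-07 for 2ME against echinomycin and -0.73 ± 0.06, adjusted p = 2.4e-07 for echinomycin against IWR-1, and for ezh1, at -1.18 ± 0.15, adjusted p = 7.3e-06 for 2ME against echinomycin and 0.71 ± 0.14, adjusted p = 0.0010 for echinomycin against IWR-1. The 8 tested markers of cycling cells were all lower with echinomycin. Summed over the 9 models of that list, their level was 353 to 503 CPM with echinomycin and 717 to 779.6 CPM with DMSO. At 0 hpa their summed level was 1053 to 1209 CPM. The part of the cycling cells in these results was not tested.

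For DMSO against 0 hpa, suz12 was lower (-0.23 ± 0.08, adjusted p = 0.012). ezh2 was 0.21 ± 0.06, adjusted p = 0.0080, a call that ended without 0 hpa replicate 2 (adjusted p = 0.0786), with upper-quartile factors (adjusted p = 0.108) and with the length offset (adjusted p = 0.078). eed was 0.27 ± 0.08, adjusted p = 0.0076, a call that ended without 0 hpa replicate 1 (adjusted p = 0.0525), 0 hpa replicate 2 (0.0532) or DMSO replicate 2 (0.0666), with upper-quartile factors (adjusted p = 0.0581) and with the length offset (adjusted p = 0.336). ezh1 did not pass the test (-0.34 ± 0.16, adjusted p = 0.070). Of 31 tested Polycomb partners, 10 were higher and 6 lower with DMSO than at 0 hpa. Against DMSO 2ME gave 6 and 6, echinomycin 9 and 11 (16 and 5 with library size alone, 16 and 8 with upper-quartile factors) and IWR-1 6 and 5 (15 and 3), while 2ME gave 8 and 4 with library size alone. The share of partners called was 51.6% for DMSO against 0 hpa, 38.7% with 2ME, 64.5% with echinomycin and 35.5% with IWR-1 against DMSO (63%, 30.5%, 51.6% and 42.3% of all models). Without single libraries the 6 higher with 2ME became 3 without DMSO replicate 1 and 2 without DMSO replicate 2 or 2ME replicate 1, and the 6 higher with IWR-1 became 3 without DMSO replicate 2 or IWR-1 replicate 2. mtf2, which tethers PRC2 to CpG islands, fell with echinomycin to 30.2 CPM, against 49.9 with DMSO (-0.72 ± 0.08, adjusted p = 1.1e-06). The PRC1 chromodomain gene cbx6 rose with echinomycin to 7.93 CPM, against 1.96 with DMSO (2.00 ± 0.26, adjusted p = 7.8e-06), and asxl2, a subunit of the Polycomb deubiquitinase, rose with IWR-1 to 24.2 against 12.5 CPM (0.95 ± 0.12, adjusted p = 1.7e-05).

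Among the arginine methyltransferases, 7 of 8 tested models were higher and 0 lower with DMSO than at 0 hpa under TMM, RLE and library size scaling, and 7 higher and 1 lower with upper-quartile factors and with the length offset. prmt5, which makes symmetric dimethylarginine on histones and splicing proteins, was at 82.0, 79.9 and 81.2 CPM with 2ME, 51.7, 54.5 and 56.5 with echinomycin, 68.6, 64.3 and 69.2 with IWR-1, 79.4, 82.0 and 80.0 with DMSO, and 30.6, 30.2 and 29.3 at 0 hpa. The 0 hpa libraries were below all others, and the 2ME and DMSO libraries were highest and overlapped. The log2 ratio was 1.42 ± 0.05, adjusted p = 1.9e-12 for DMSO against 0 hpa, -0.57 ± 0.05, adjusted p = 2.4e-07 for echinomycin against DMSO and 0.27 ± 0.05, adjusted p = 0.0012 for 2ME against IWR-1. IWR-1 against DMSO (-0.26 ± 0.05, adjusted p = 0.00072) was not called with library size alone (adjusted p = 0.165). prmt1, the main enzyme of asymmetric dimethylarginine, was at 368, 381 and 368 CPM with 2ME, 162, 201 and 198 with echinomycin, 314, 319 and 332 with IWR-1, 368, 378 and 348 with DMSO, and 175, 181 and 181 at 0 hpa. Echinomycin libraries spanned the 0 hpa level and were far below those of 2ME, IWR-1 and DMSO. The ratio was 1.03 ± 0.07, adjusted p = 1.5e-09 for DMSO against 0 hpa, -0.96 ± 0.07, adjusted p = 2.2e-08 for echinomycin against DMSO and 0.99 ± 0.07, adjusted p = 1.1e-08 for 2ME against echinomycin. Its call with IWR-1 (-0.18 ± 0.07, adjusted p = 0.043) ended in 11 of the 15 fits that leave out 1 library, with the highest adjusted p, 0.171, without DMSO replicate 2, and with RLE factors, upper-quartile factors, library size alone and the length offset.

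prmt3, which methylates a protein of the small ribosomal subunit, stood on 2 models of 418 and 1290 bases that could exchange reads. Both were higher with DMSO than at 0 hpa (1.23 ± 0.19, adjusted p = 2.3e-05 and 0.84 ± 0.10, adjusted p = 1.8e-06) and lower with echinomycin than with DMSO (-1.23 ± 0.18, adjusted p = 3.1e-05 and -0.97 ± 0.10, adjusted p = 9.0e-07). prmt2, prmt6 and prmt7 were higher with DMSO than at 0 hpa by 0.30 to 0.64 on the log2 scale, and prmt6 and prmt7 lower with echinomycin. prmt9 passed no test with TMM factors, and was lower with DMSO than at 0 hpa with upper-quartile factors (adjusted p = 0.0317) and the length offset (adjusted p = 0.0315). With echinomycin 6 of 8 models were lower than with DMSO and 0 higher, a split of 0 to 6 under every scaling and with the length offset. With 2ME against DMSO edgeR called 0 of 8, with 0 at an unadjusted p under 0.05, 0 by DESeq2, and 1 by limma and with library size alone, while 6 were higher with 2ME than with echinomycin under every scaling. IWR-1 gave 0 and 2, but 2 and 0 with library size alone. For the PRMT models, the share called was 87.5% for DMSO against 0 hpa, 0% with 2ME, 75% with echinomycin and 25% with IWR-1 against DMSO (63%, 30.5%, 51.6% and 42.3% of all models). clns1a, a substrate adaptor of PRMT5, averaged 52.4 CPM with DMSO and 23.6 CPM at 0 hpa (1.15 ± 0.08, adjusted p = 4.0e-09), with lower values than DMSO for 2ME (-0.44 ± 0.08, adjusted p = 0.00076) and IWR-1 (-0.55 ± 0.08, adjusted p = 5.6e-05). wdr77, the partner subunit of PRMT5, averaged 28.9 CPM with echinomycin and 51.8 CPM with DMSO (-0.84 ± 0.07, adjusted p = 1.7e-07).

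All 4 DNA methylation enzyme genes were lower with DMSO than at 0 hpa (30.8% of all models were), under every scaling and with the length offset. tet2 and tet3 encode dioxygenases that oxidise methylcytosine. tet2 was at 10.4, 7.39 and 6.79 CPM with 2ME, 8.09, 15.6 and 14.7 with echinomycin, 9.47, 12.2 and 14.8 with IWR-1, 2.08, 3.90 and 3.99 with DMSO, and 6.997, 11.99 and 6.88 at 0 hpa. The DMSO libraries were below all 12 others, and echinomycin replicate 1 was below the other two of its group. The log2 ratio was -1.37 ± 0.31, adjusted p = 0.0010 for DMSO against 0 hpa, and against DMSO it was 1.29 ± 0.31, adjusted p = 0.0048 with 2ME, 1.92 ± 0.30, adjusted p = 5.3e-05 with echinomycin and 1.85 ± 0.30, adjusted p = 0.00012 with IWR-1. tet3 was at 21.9, 18.3 and 17.4 CPM with 2ME, 19.0, 26.1 and 27.7 with echinomycin, 16.7, 22.2 and 26.0 with IWR-1, 8.26, 11.1 and 12.3 with DMSO, and 21.9, 26.7 and 18.7 at 0 hpa. Again DMSO was below all others. Its ratio was -1.08 ± 0.19, adjusted p = 9.6e-05 for DMSO against 0 hpa, 0.86 ± 0.19, adjusted p = 0.0028 with 2ME, 1.19 ± 0.19, adjusted p = 5.7e-05 with echinomycin and 1.03 ± 0.19, adjusted p = 0.00035 with IWR-1 against DMSO. All 8 calls held in all 26 alternatives. The compounds did not differ past the test for either gene. For 2ME against echinomycin this depended on the processing. There tet2 was called in 7 of the alternatives (lowest adjusted p = 0.0108) and tet3 in 1 (0.0377). No alternative called either gene for 2ME or echinomycin against IWR-1. The log2 ratio of tet2 was -0.64 for 2ME against echinomycin and -0.56 for 2ME against IWR-1. In the latter the lowest adjusted p of tet2 among the alternatives was 0.0505. For echinomycin against IWR-1 the 95% interval was -0.51 to 0.66 for tet2 and -0.23 to 0.56 for tet3. The transcripts have 8071 and 6323 bases, and the same 3 DMSO libraries enter all of these comparisons with DMSO.

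dnmt1, the maintenance methyltransferase that acts at replication forks, was at 63.6, 65.2 and 56.9 CPM with 2ME, 29.3, 52.0 and 47.7 with echinomycin, 88.4, 80.7 and 81.5 with IWR-1, 80.1, 88.5 and 84.0 with DMSO, and 139, 134 and 126 at 0 hpa. The 0 hpa libraries were highest and echinomycin lowest, with echinomycin replicate 1 far below the other two. The ratio was -0.66 ± 0.13, adjusted p = 0.00034 for DMSO against 0 hpa, -0.97 ± 0.14, adjusted p = 1.8e-05 for echinomycin against DMSO, -0.96 ± 0.14, adjusted p = 4.0e-05 for echinomycin against IWR-1 and -0.01 ± 0.13, adjusted p = 0.95 for IWR-1 against DMSO, the last with a 95% interval of -0.31 to 0.28. With 2ME (-0.44 ± 0.13, adjusted p = 0.018) the call ended without DMSO replicate 2 (adjusted p = 0.0796) or 2ME replicate 3 (0.0719) and with library size alone (adjusted p = 0.0963). The de novo enzyme gene dnmt3a, with a transcript of 18322 bases, was at 93.2, 88.9 and 84.9 CPM with 2ME, 90.6, 105 and 104 with echinomycin, 125, 122 and 127 with IWR-1, 106, 104 and 108 with DMSO, and 148, 149.9 and 158 at 0 hpa. 0 hpa was highest and 2ME the lowest in mean. The ratio was -0.52 ± 0.06, adjusted p = 9.2e-07 for DMSO against 0 hpa and -0.49 ± 0.06, adjusted p = 1.8e-05 for 2ME against IWR-1. The rise with IWR-1 (0.24 ± 0.06, adjusted p = 0.0041) came to -0.01 with the length offset (adjusted p = 0.891), and the fall with 2ME (-0.25 ± 0.06, adjusted p = 0.0045) ended with library size alone (adjusted p = 0.205). Markers of cycling cells were lower with DMSO than at 0 hpa too (6 of 8 tested), with a summed level over the 9 models of the list of 717 to 779.6 CPM with DMSO and 1053 to 1209 CPM at 0 hpa, and their part was not tested.

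Of 25 tested readers, guides and repair genes of DNA methylation, 9 were higher and 9 lower with DMSO than at 0 hpa. Against DMSO, 2 and 6 were called with 2ME (4 and 1 with library size alone), 9 and 10 with echinomycin (11 and 6) and 7 and 7 with IWR-1 (9 and 5). Without single libraries, the 6 lower with 2ME became 2 without DMSO replicate 2 and 3 without DMSO replicate 3 or 2ME replicate 1. In this list, the share called was 72% for DMSO against 0 hpa, 32% with 2ME, 76% with echinomycin and 56% with IWR-1 against DMSO (63%, 30.5%, 51.6% and 42.3% of all models). gadd45g, a stress gene linked to active demethylation, had in 1 of its models 126 CPM with DMSO and 20.7 CPM at 0 hpa (2.60 ± 0.09, adjusted p = 4.9e-13). Against DMSO it fell to 83.3 CPM with 2ME (-0.59 ± 0.08, adjusted p = 4.6e-05) and 54.0 CPM with IWR-1 (-1.22 ± 0.08, adjusted p = 1.3e-08). apobec2, a member of the deaminase family found in muscle, fell to 2.59 CPM with DMSO, against 25.8 at 0 hpa (-3.31 ± 0.16, adjusted p = 3.0e-11), and was 11.5 CPM with echinomycin (2.14 ± 0.17, adjusted p = 4.3e-08 against DMSO). The muscle markers moved the same way in both, and their part was not tested.

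Among the SMARC genes, smarca4 (BRG1) and smarca2 (BRM) encode the alternative ATPases of SWI/SNF, and smarca4 was higher with DMSO than at 0 hpa while smarca2 did not pass the test. smarca4 was at 121, 119 and 114 CPM with 2ME, 92.5, 88.0 and 87.4 with echinomycin, 105, 119 and 119.7 with IWR-1, 138, 138 and 124 with DMSO, and 49.7, 58.8 and 50.3 at 0 hpa. All 0 hpa libraries were below all others, and echinomycin was the next lowest, with no overlap. Its log2 ratio was 1.33 ± 0.07, adjusted p = 1.2e-10 for DMSO against 0 hpa, -0.58 ± 0.07, adjusted p = 4.7e-06 for echinomycin against DMSO and 0.40 ± 0.07, adjusted p = 0.00019 for 2ME against echinomycin. With 2ME the ratio to DMSO was -0.17 ± 0.07, adjusted p = 0.070, and with IWR-1 -0.22 ± 0.07, adjusted p = 0.018, a call that ended without DMSO replicate 1 (adjusted p = 0.0892), DMSO replicate 2 (0.0894) or IWR-1 replicate 1 (0.0885), with upper-quartile factors and with library size alone. smarca2 lay between 130.1 and 150.5 CPM in all 15 libraries, with a ratio of -0.0039 ± 0.05, adjusted p = 0.95 for DMSO against 0 hpa and a 95% interval of -0.11 to 0.10. smarca5, the ATPase of the ISWI complexes, was at 138, 142 and 129.8 CPM with 2ME, 74.3, 91.2 and 82.7 with echinomycin, 129, 136 and 138 with IWR-1, 129.5, 129 and 130.1 with DMSO, and 84.2, 89.3 and 87.4 at 0 hpa. The echinomycin libraries overlapped those of 0 hpa and lay below the rest. The ratio was 0.58 ± 0.07, adjusted p = 7.6e-07 for DMSO against 0 hpa, -0.65 ± 0.06, adjusted p = 6.1e-07 for echinomycin against DMSO and 0.72 ± 0.06, adjusted p = 1.9e-07 for 2ME against echinomycin.

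smarce1, a core SWI/SNF subunit and the most abundant member, was at 319.5, 323 and 315 CPM with 2ME, 245, 242 and 239.5 with echinomycin, 314, 306 and 296 with IWR-1, 376, 397 and 336 with DMSO, and 181, 174 and 182 at 0 hpa. DMSO was highest, echinomycin lower than every other 24 hpa group, and 0 hpa lowest, none of these 3 overlapping. The ratio was 1.05 ± 0.06, adjusted p = 1.4e-10 for DMSO against 0 hpa and -0.61 ± 0.06, adjusted p = 3.4e-07 for echinomycin against DMSO; the calls with 2ME (-0.21 ± 0.06, adjusted p = 0.011) and IWR-1 (-0.27 ± 0.06, adjusted p = 0.0011) ended with library size alone (adjusted p = 0.3 and 0.0769) and with the length offset, and that with 2ME also without DMSO replicate 1 (adjusted p = 0.0512) or DMSO replicate 2 (0.0896). smarcb1, another core subunit, averaged 100.5 CPM with DMSO and 51.0 CPM at 0 hpa (0.98 ± 0.06, adjusted p = 6.2e-10) and was lower with echinomycin than with DMSO (-0.53 ± 0.06, adjusted p = 2.4e-06). Against the direction of most of the class, smarcd3, the subunit of heart and skeletal muscle, fell to 9.45 CPM with DMSO, against 20.5 at 0 hpa (-1.12 ± 0.14, adjusted p = 3.2e-06), beside the fall of the muscle markers, whose part was not tested. The scaffold gene smarcc2 fell to 48.5 CPM with DMSO, against 59.9 at 0 hpa (-0.30 ± 0.07, adjusted p = 0.0013). The rare smarca1 was at 0.393, 0.623 and 0.338 CPM with DMSO and 0.618, 0.687 and 1.77 at 0 hpa (-1.15 ± 0.45, adjusted p = 0.037), and the groups overlapped. Its call ended in 5 of 25 alternatives, among them those without 0 hpa replicate 3 or DMSO replicate 1 or 3, with an adjusted p of up to 0.322.

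Counted together, 8 of 13 SMARC genes were higher and 3 lower with DMSO than at 0 hpa, with 7 or 8 higher and 3 lower under every scaling. With echinomycin 2 were higher and 8 lower than with DMSO, with 7 to 9 lower and 1 or 2 higher in every scaling and the length offset. The counts with 2ME (0 and 3) turned to 3 and 0 with library size alone, and those with IWR-1 (0 and 5) to 5 and 0. Without single libraries, the 3 lower with 2ME became 1 without DMSO replicate 1 or DMSO replicate 2, and the 5 lower with IWR-1 became 2 without DMSO replicate 1 and 3 without DMSO replicate 2 or IWR-1 replicate 1. The share of SMARC genes called was 84.6% for DMSO against 0 hpa, 23.1% with 2ME, 76.9% with echinomycin and 38.5% with IWR-1 against DMSO (63%, 30.5%, 51.6% and 42.3% of all models). In the list of 60 tested SWI/SNF partners and other remodelers, 32 were higher and 11 lower with DMSO than at 0 hpa (24 and 17 with upper-quartile factors). Against DMSO 13 and 23 were called with echinomycin (19 and 16 with library size alone), 6 and 17 with 2ME (17 and 10, with 3 higher under the length offset) and 11 and 19 with IWR-1 (19 and 10). Of the 2ME counts, the 17 lower with 2ME became 11 without DMSO replicate 1 or 2ME replicate 1 and 9 without DMSO replicate 2. Among these partners, the share called was 71.7% for DMSO against 0 hpa, 38.3% with 2ME, 60% with echinomycin and 50% with IWR-1 against DMSO (63%, 30.5%, 51.6% and 42.3% of all models). baz1a, a partner of smarca5, averaged 120.4 CPM with DMSO and 71.4 CPM at 0 hpa (0.75 ± 0.05, adjusted p = 1.8e-09). The ATPase ruvbl2 of the INO80 and TIP60 complexes and actl6a, an actin-related subunit of both SWI/SNF and INO80, fell with echinomycin, to 60.6 against 110.0 CPM with DMSO (-0.86 ± 0.06, adjusted p = 2.9e-08) and 81.9 against 145 CPM (-0.83 ± 0.06, adjusted p = 5.1e-08).

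Ratios of related genes within a library need no scaling of library totals. The length trend of a library can still enter them where the transcripts differ in length, and its part was not tested. The ratio of hdac1 to hdac2 TPM was 4.16 ± 0.0092 with 2ME, 4.75 ± 0.42 with echinomycin, 4.01 ± 0.13 with IWR-1, 3.30 ± 0.095 with DMSO and 2.78 ± 0.25 at 0 hpa (SD, n = 3 each). Every library with a compound had a higher ratio than every DMSO library, and every DMSO library than every 0 hpa library. For ezh2 over ezh1 the ratio was 40.3 ± 10.2, 10.5 ± 0.95, 28.6 ± 1.78, 37.2 ± 2.97 and 25.3 ± 1.68 with 2ME, echinomycin, IWR-1, DMSO and at 0 hpa, and the following values keep that order. The echinomycin libraries, at 9.42 to 11.2, were far below the others, at 23.8 to 52.0. smarca4 over smarca2 was 0.845 ± 0.013, 0.694 ± 0.051, 0.811 ± 0.048, 0.966 ± 0.073 and 0.382 ± 0.036, with every 0 hpa library below every other. dnmt1 over dnmt3a was 2.62 ± 0.13, 1.61 ± 0.34, 2.52 ± 0.13, 3.00 ± 0.19 and 3.31 ± 0.27, lowest with echinomycin. kat2a over kat2b was lowest in mean with echinomycin, at 1.74 ± 0.14, against 2.78 ± 0.032 with DMSO. An exact two-sided permutation test of 3 against 3 libraries cannot give a p under 0.1, so these ratios are given as values.

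**Figure D5:**
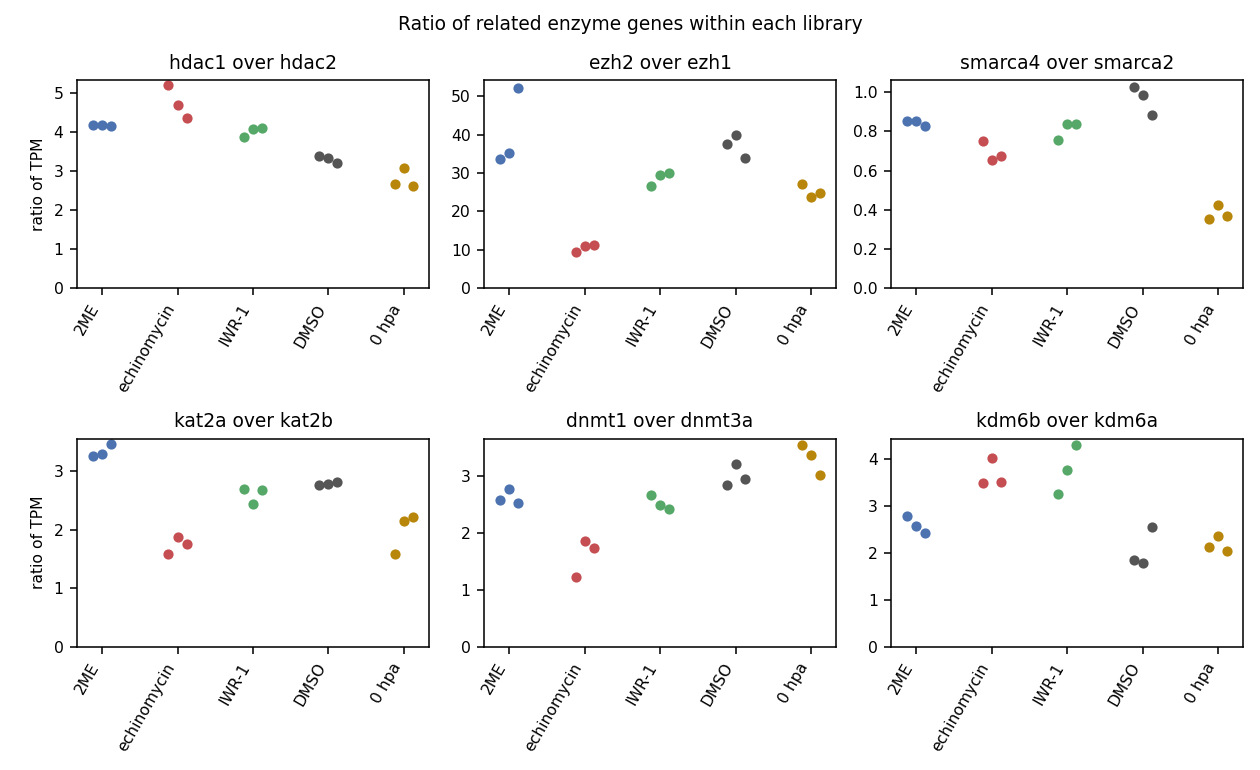
Ratio of TPM values of 6 pairs of related genes in each library (points), in the order 2ME, echinomycin, IWR-1, DMSO and 0 hpa; every axis starts at 0. ezh2 over ezh1 is at 9.42 to 11.2 in the echinomycin libraries and at 23.8 to 52.0 in the others.

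Between the compounds, of the 87 members, 34 were higher and 13 lower with 2ME than with echinomycin (44.1% of all models were called; 30 and 22 with upper-quartile factors), and 6 were higher and 35 lower with echinomycin than with IWR-1 (34.8%; 8 and 24 with upper-quartile factors). For 2ME against IWR-1 the counts were 6 and 10 (22.5%). Of all models, 22.8% were higher and 21.3% lower with 2ME than with echinomycin. The shares were 16.2% and 18.6% for echinomycin against IWR-1, and 11.1% and 11.4% for 2ME against IWR-1. Without 2ME replicate 2, the 13 lower with 2ME than with echinomycin became 8. The count of 6 higher with echinomycin than with IWR-1 became 3 without any 1 of 2ME replicate 2 or 3, echinomycin replicate 1 or 3, or IWR-1 replicate 1 or 3. For 2ME against IWR-1, the 6 higher became 3 without 2ME replicate 1 or 3 or IWR-1 replicate 1 or 3, and the 10 lower became 5 without 2ME replicate 3 or IWR-1 replicate 2 and 6 without IWR-1 replicate 1. At 1.5-fold or more, 7 were higher (8.05% of all models) and 4 lower (13.2%) with 2ME than with echinomycin, 0 higher (3.43%) and 1 lower (6.38%, 9.81% in either direction) with 2ME than with IWR-1, and 2 higher (7.92%) and 8 lower (6.48%) with echinomycin than with IWR-1. The doses differed (5 µM 2ME, 0.5 µM echinomycin, 10 µM IWR-1), so these counts do not rank the compounds.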

How the data were processed

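RNA-seq of Xenopus tropicalis tadpole tail tissue was analysed in 15 libraries, 3 in each of 5 groups taken from the labels. Per the submitters' processing notes, Trim Galore 0.6.5, kallisto and edgeR were used. The deposited files give, per the file headers, an estimated count and a TPM per transcript model from kallisto. A table of CPM for 15892 models, deposited by the authors, was used for 1 alternative. The labels of the IWR-1 samples number the compound from replicate to replicate, and the design text names IWR-1, which is taken for all 3.

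Estimated counts (17297773 to 23377789 per library, 21.4% not whole at a tolerance of 1e-06) were rounded. edgeR 4.0.16 in R 4.3.3 fitted 1 coefficient per group over all 15 libraries with TMM factors and filterByExpr (minimum count 10, total 15). Its quasi-likelihood test with Benjamini-Hochberg adjustment over all tested models gave the calls, at an adjusted p under 0.05. The SE of a log2 ratio is its absolute value divided by the square root of the F statistic. Intervals of a ratio are 95%, from that SE and a t quantile with the 10 residual degrees of freedom. CPM printed here was computed from the counts on TMM-scaled library sizes, and TPM was used as deposited. Tests were checked on simulated data in which known genes were raised in DMSO alone, with a common spread for all genes. These data held no trend with transcript length and no broad shift in scaling, so the check does not cover those.

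The members, the gene lists and the naming rule were chosen with earlier results of these data known. Per comparison the rule names a fixed set of 16 members with a model, and per class up to 3 called rises and 3 falls (2 and 2 between compounds) with no overlap and at least 5 CPM, plus up to 2 partner genes per list with the smallest adjusted p. The text does not print every gene and comparison that the rule takes. Left out are, for example, the falls of hdac6 with 2ME and echinomycin and the rise of setd5 with DMSO over 0 hpa. The count of called ratios of named members below includes them. Values of hdac9, kdm3a, kdm6a, smarca1, sirt5 and setd4 with the compounds, of kat14, kdm4b, kmt2c, the second prmt3 model, prmt5, smarca5 and smarcb1 in single comparisons, and of classes as a whole were added after their values were seen. Counting by strand is not given in the sources used here, so overlapping genes cannot be told apart. Alternatives were other scalings (RLE, upper-quartile, library size alone), filters, DESeq2 1.42.0, limma 3.58.1 on log2(CPM + 1), only the 2 groups compared, the replicate block, length offsets and leaving out each library. No sequence or genome coordinate was used.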

Additional observations from a re-analysis of the deposited data

How the results depend on the processing

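Of 190 called ratios of named members, 122 kept their call in all 26 alternatives, and so did 122 of the 125 of named partner genes. Partner genes were named for the smallest adjusted p, and members outside the fixed set for large called ratios without overlap. Such genes tend to keep their calls by selection, so these counts do not describe the enzyme genes at large. Values below are higher and lower members. At 1.5-fold or more they were 14 and 8 for DMSO against 0 hpa, 3 and 1 for 2ME, 8 and 11 for echinomycin and 5 and 0 for IWR-1 against DMSO, 7 and 4 for 2ME against echinomycin, 0 and 1 for 2ME against IWR-1, and 2 and 8 for echinomycin against IWR-1. Library size alone gave 27 and 2 for 2ME, 29 higher for echinomycin and 39 and 2 for IWR-1 against DMSO, and 3 higher for echinomycin against IWR-1. limma on deposited CPM gave 28 and 2, 27, 39 and 3, and 3 for these, and 3 higher for 2ME against IWR-1. Upper-quartile factors gave 26 higher for echinomycin and 9 lower for IWR-1 against DMSO, and 22 lower for 2ME against echinomycin. For echinomycin against IWR-1, 2 were higher with no filter and 3 with DESeq2. Leaving out 1 library gave 31 to 36 and 17 to 21 for DMSO against 0 hpa; 8 to 13 and 4 to 13 for 2ME, 13 to 18 and 31 to 35 for echinomycin, and 12 to 17 and 8 to 15 for IWR-1 against DMSO. Between compounds it gave 31 to 35 and 8 to 16 for 2ME against echinomycin, 3 to 6 and 5 to 11 for 2ME against IWR-1, and 3 to 7 and 28 to 34 for echinomycin against IWR-1. What a replicate number stands for is not given, so whether it pairs the samples is not known. Same-numbered libraries correlated at -0.144 to 0.126 in their deviations from the group means. Each IWR-1 library correlated best with the DMSO library of its number (0.0383, 0.104 and 0.0744). In no other comparison did all 3 numbers match in this way. The replicate block gave 35 and 19 for DMSO against 0 hpa. Against DMSO it gave 11 and 12 for 2ME, 15 and 35 for echinomycin and 14 and 15 for IWR-1. For echinomycin against IWR-1 it gave 3 higher. The ratio of dnmt3a for IWR-1 against DMSO became -0.0116 with the length offset. The cause was not tested. On raw library totals, a count of 0 allows up to 0.128 to 0.173 CPM in a library, so a gene below that level may show a count of 0 at this depth.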

Other observations

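Histone chaperones, which carry histones to and from DNA, and readers of histone marks lie outside the enzyme classes. Of 22 tested chaperone genes, 9 were higher and 4 lower with DMSO than at 0 hpa (6 and 7 with upper-quartile factors). The share called was 59.1% for DMSO against 0 hpa, 40.9% with 2ME, 72.7% with echinomycin and 45.5% with IWR-1 against DMSO (63%, 30.5%, 51.6% and 42.3% of all models). With echinomycin 1 was higher and 15 lower than with DMSO, and 12 to 16 were lower under every scaling and with the length offset. With 2ME 2 were higher and 7 lower than with DMSO, and with IWR-1 2 and 8 (5 and 3 with library size alone). The 2 higher with 2ME and the 2 higher with IWR-1 each fell to as few as 0 when 1 library was left out. Without single libraries, the 8 lower with IWR-1 became 5 without DMSO replicate 2 or IWR-1 replicate 2, and the 4 lower with DMSO than at 0 hpa became 2 without 0 hpa replicate 1. npm1, a nucleolar chaperone, averaged 691 CPM with DMSO and 329.7 CPM at 0 hpa (log2 ratio 1.07 ± 0.06, adjusted p = 2.5e-10). ssrp1, a subunit of the FACT complex that opens nucleosomes ahead of polymerases, averaged 137 CPM with echinomycin and 279 CPM with DMSO (-1.03 ± 0.07, adjusted p = 2.3e-08). The 8 tested markers of cycling cells were lower with echinomycin as well, and their part was not tested.

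Of 26 tested readers with bromodomains or chromodomains, 12 were higher and 7 lower with DMSO than at 0 hpa (9 and 7 with upper-quartile factors), and 7 were higher and 14 lower with echinomycin than with DMSO (8 and 11 with library size alone). With the length offset 4 were lower with DMSO than at 0 hpa. Of these readers, the share called was 73.1% for DMSO against 0 hpa, 34.6% with 2ME, 80.8% with echinomycin and 50% with IWR-1 against DMSO (63%, 30.5%, 51.6% and 42.3% of all models). brd3, a BET reader of acetylated histones, averaged 75.5 CPM with DMSO and 21.3 CPM at 0 hpa (1.83 ± 0.14, adjusted p = 8.0e-09). Against DMSO its log2 ratio was -1.13 ± 0.13, adjusted p = 1.9e-05 with 2ME, -1.36 ± 0.14, adjusted p = 5.9e-07 with echinomycin and -1.31 ± 0.14, adjusted p = 1.8e-06 with IWR-1.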
